A study of Mus musculus with 8 samples.

Results

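The expression of 10 genes was followed in epididymal white adipose tissue of mice with and without an aP2-Cre transgene on a floxed aromatase background. They encode 7 chaperones and folding enzymes of the endoplasmic reticulum (ER), namely Hspa5, Hsp90b1, Calr, Canx, Pdia3, Pdia4 and Pdia6, and 3 transcription factors of the unfolded protein response, namely Xbp1, Atf4 and Ddit3. These 10 members were chosen by name and function, with earlier results of these data known, and all 10 were found among the 34866 genes of the count table. None differed between the genotypes past the threshold, which only 0.168% of all tested genes passed. For 8 of the 10 the 95% interval of the difference lay within 1.5-fold in either direction, as it did for 43.9% of all tested genes.

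The control group held 4 libraries from mice with both copies of the aromatase gene Cyp19a1 floxed (genotype label Aromatase flox/flox), and the knockout group 4 libraries from mice of the genotype aP2-Cre;Aromatase flox/flox. The floxed allele is thus shared by both groups, and the groups differ by the transgene, in which the aP2 (Fabp4) promoter, known to be active in adipocytes and also in macrophages, expresses the recombinase Cre. The stated aim was to find targets of Cyp19a1 in adipose tissue that act on phosphorus metabolism. The depot is found in males; the age of the mice is not given in the sources used here, nor whether a library came from 1 animal. Mice with the transgene alone were not analysed here, so the transgene and the deletion cannot be told apart.

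The ER is where secreted and membrane proteins fold. Hspa5 (BiP) binds unfolded chains, and when these accumulate it is released from the stress sensors ATF6, IRE1 and PERK. Cleaved ATF6 enters the nucleus and raises chaperone genes, IRE1 cuts Xbp1 mRNA so that an active factor is made, and PERK slows translation while favouring that of Atf4, which in turn raises Ddit3 (CHOP). Adipocytes secrete adipokines and lipases in quantity and depend on this machinery, and its stress arm is known to be raised in the fat of obese animals.

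The best known binding site of ATF6 is the ER stress response element (ERSE), with the letters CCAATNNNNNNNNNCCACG. It was searched on both strands of the RefSeq promoter windows (GRCm38.p6), each from 250 bases before to 50 bases after a transcription start; all 10 members had a window. The element was present in 5 members, Hspa5, Hsp90b1, Calr, Canx and Pdia6, and in 39 of all 32851 windows, or 0.119%. The matches are printed as sequence and not as a result, since ATF6, which binds this element, is known to raise chaperone genes. The capitals mark the CCAAT and CCACG ends of the element. Each sequence is read on the strand of its element, and 5 flanking bases are shown at either side.
Hspa5, chr2:34772020-34772048, plus strand: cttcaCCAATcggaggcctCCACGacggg
Hsp90b1, chr10:86705633-86705661, minus strand: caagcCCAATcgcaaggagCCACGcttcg
Hsp90b1, chr10:86705528-86705556, plus strand: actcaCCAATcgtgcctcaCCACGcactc
Calr, chr8:84847070-84847098, plus strand: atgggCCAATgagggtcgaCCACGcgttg
Canx, chr11:50325795-50325823, minus strand: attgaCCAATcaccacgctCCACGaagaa
Pdia6, chr12:17266486-17266514, plus strand: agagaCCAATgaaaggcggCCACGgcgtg
The match of Hspa5 began 65 bases before the RefSeq start. In GENCODE M21 it lies in an exon of the gene, in an untranslated or noncoding part. The other matches lie outside the annotated genes. Hsp90b1 held 2 matches, beginning 212 and 107 bases before its start. The matches of Calr, Canx and Pdia6 began 162, 145 and 98 bases before the start. The related element ERSE-II, the core TGACGTGG of the XBP1 site and the ATF4 site TGATGNAA, also searched on both strands, were in none of the members' windows and in 0.0365%, 0.676% and 3.97% of all windows; none overlapped an ERSE in a member. No match says only that these letters are not in these windows.

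**Figure D1:**
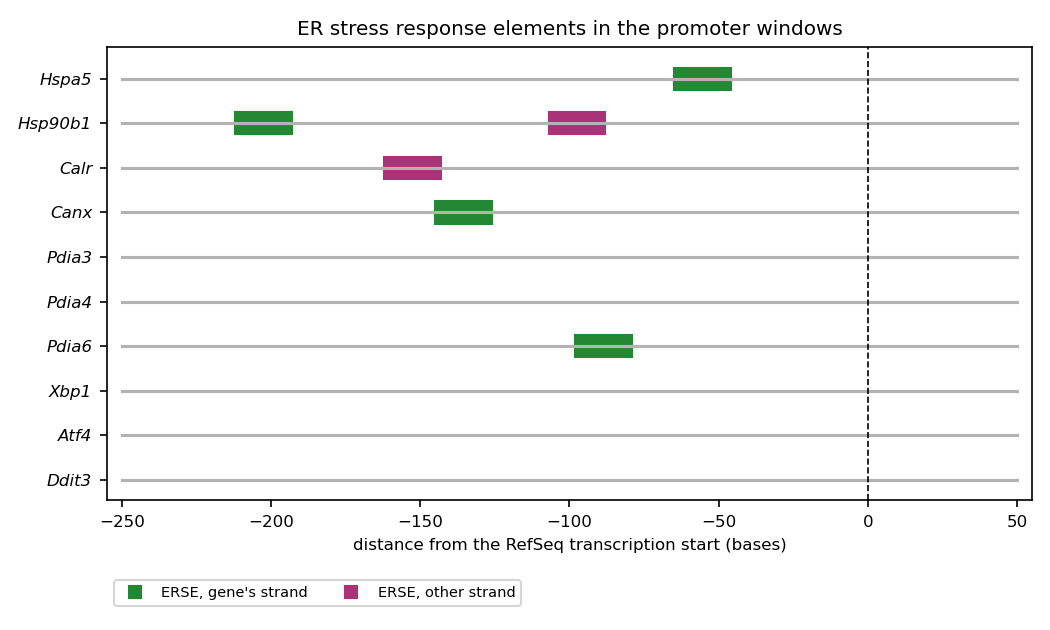
Position of each ERSE match (box) in the promoter window of each member, as distance in bases from the RefSeq transcription start (dashed line); green boxes are on the strand of the gene and purple boxes on the other. The 5 genes hold 6 matches between them, all before the start.

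Xbp1 carries a second sequence that matters for what could be measured. IRE1 removes 26 bases from the coding part of exon 4, at chr11:5524279-5524304 on the plus strand (GRCm38), found in the GENCODE transcript Xbp1-201 as the stretch between the cuts after the G of CNG in a pair of CNGCAGC loops. In capitals, with 2 flanking bases at either side, it reads as follows.
Xbp1 intron: cgCAGCACTCAGACTATGTGCACCTCTGca
It ends 1289 bases before the 3′ end of that 2129-base transcript. The libraries were made by BRB-seq, which reads near the 3′ ends of mRNAs, and the deposited values are per gene, so spliced and unspliced Xbp1 mRNA are counted together. Cleavage of ATF6, phosphorylation by PERK and the translation of Atf4 likewise leave no direct trace in these values.

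Library totals ranged from 1538427 (control replicate 4) to 3053565 estimated counts, and the members had 26.3 (Ddit3, control replicate 4) to 1383 estimated counts in a library. Values are given as CPM, counts divided by a library size that was scaled by trimmed means (TMM); they are not divided by length, so levels are compared between groups and not between genes. Cyp19a1 had 0 to 5.02 estimated counts in a library and could not be used to check the deletion. The adipocyte genes Fabp4 (13926 to 22092 CPM), Adipoq (2109.7 to 3814 CPM) and Plin1 (644 to 1004 CPM) were abundant in every library, as the tissue label implies. In edgeR's quasi-likelihood test 21 of 12480 genes passed an adjusted p of 0.05, which is 0.168%, 15 higher and 6 lower in the knockout libraries; an unadjusted p under 0.05 was found for 6.39% of them.

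Of the general chaperones, Hspa5 and Hsp90b1 were at close to the same level in both genotypes. Hspa5 (chromosome 2, 34771970 to 34777547), the ER member of the Hsp70 family, was at 370.3, 394, 345 and 440.4 CPM in control replicates 1 to 4 and at 397, 407, 399.5 and 371 CPM in knockout replicates 1 to 4. All 4 knockout libraries lay inside the range of the controls. The means were 388 ± 40.5 and 394 ± 15.7 CPM (SD, n = 4). The log2 fold change was 0.02 with a 95% interval from -0.21 to 0.26, that is from 0.864-fold to 1.2-fold (edgeR adjusted p = 0.987). An increase of Hspa5 mRNA is the most used sign of ER stress, and the upper bound of its interval was an increase of 19.7%. Hsp90b1 (chromosome 10, 86690209 to 86705509), the ER member of the Hsp90 family that folds integrins and Toll-like receptors, was at 377, 349.8, 357 and 368 CPM in the controls and at 433, 391, 391 and 343 CPM in the knockouts. Knockout replicates 1 to 3 stood above every control and knockout replicate 4 below every control. The log2 fold change was 0.10 with an interval from -0.13 to 0.33 (363 ± 11.9 against 389.5 ± 36.7 CPM, SD, n = 4; edgeR adjusted p = 0.939).

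The lectin chaperones Calr and Canx hold newly made glycoproteins until their sugars are trimmed. Calr (chromosome 8, 84841850 to 84846934), encoding the soluble calreticulin that also binds calcium, was at 483, 417, 395 and 463 CPM in control and at 482, 444, 424 and 421 CPM in knockout replicates 1 to 4. The knockout values again fell inside the control range, and the log2 fold change was 0.01 with an interval from -0.23 to 0.25 (edgeR adjusted p = 0.996). Canx (chromosome 11, 50293961 to 50325673), encoding the membrane-bound calnexin, was at 312, 239.8, 267 and 244 CPM in control and at 258, 311, 258 and 250.2 CPM in knockout libraries. One library of each genotype, control replicate 1 and knockout replicate 2, stood well above the rest. Its log2 fold change was 0.02 with an interval from -0.24 to 0.28 (edgeR adjusted p = 0.993).

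The protein disulfide isomerases, which form and reshuffle disulfide bonds, held the members with the smallest p-values, and 2 of the 3 had lower means in the knockout libraries. Pdia3 (chromosome 2, 121413775 to 121438687), the isomerase that works on glycoproteins held by calnexin and calreticulin, was at 201, 220.1, 196 and 238 CPM in control and at 172, 182, 191 and 204 CPM in knockout libraries. Knockout replicates 1 to 3 lay below every control, and knockout replicate 4 lay among them, so the groups overlapped. The means were 214 ± 19.3 and 187 ± 13.5 CPM (SD, n = 4). The log2 fold change was -0.19 with an interval from -0.42 to 0.05 (edgeR unadjusted p = 0.111, adjusted p = 0.875).

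Pdia4 (chromosome 6, 47796141 to 47813430), an isomerase found in complexes with Hspa5 and Hsp90b1, was at 72.7, 64, 71.3 and 55.8 CPM in control and at 62.3, 67.8, 42.3 and 42.6 CPM in knockout libraries. Knockout replicates 3 and 4 lay below every control and knockout replicates 1 and 2 within the control range. The means were 65.9 ± 7.77 and 53.7 ± 13.2 CPM (SD, n = 4), and the log2 fold change of -0.31 (interval -0.67 to 0.06) had the smallest p of the members (edgeR unadjusted p = 0.0911, adjusted p = 0.845). Without knockout replicate 2 it was -0.44 (edgeR unadjusted p = 0.0243, adjusted p = 0.867) and without control replicate 4, the smallest library, -0.38 (edgeR unadjusted p = 0.0485, adjusted p = 0.687). Leaving out knockout replicate 3 or 4, the 2 lowest libraries, moved it the other way, to -0.209 and -0.208. Pdia6 (chromosome 12, 17266545 to 17284770), an isomerase that binds Hspa5 and acts on IRE1 signalling, was at 169, 151, 148 and 168 CPM in control and at 184, 150.1, 153 and 149.5 CPM in knockout libraries. Knockout replicate 1 was the highest of all, and the other 3 knockout libraries lay close together within the control range. The log2 fold change was 0.00 with an interval from -0.24 to 0.24 (edgeR adjusted p = 1).

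**Figure D2:**
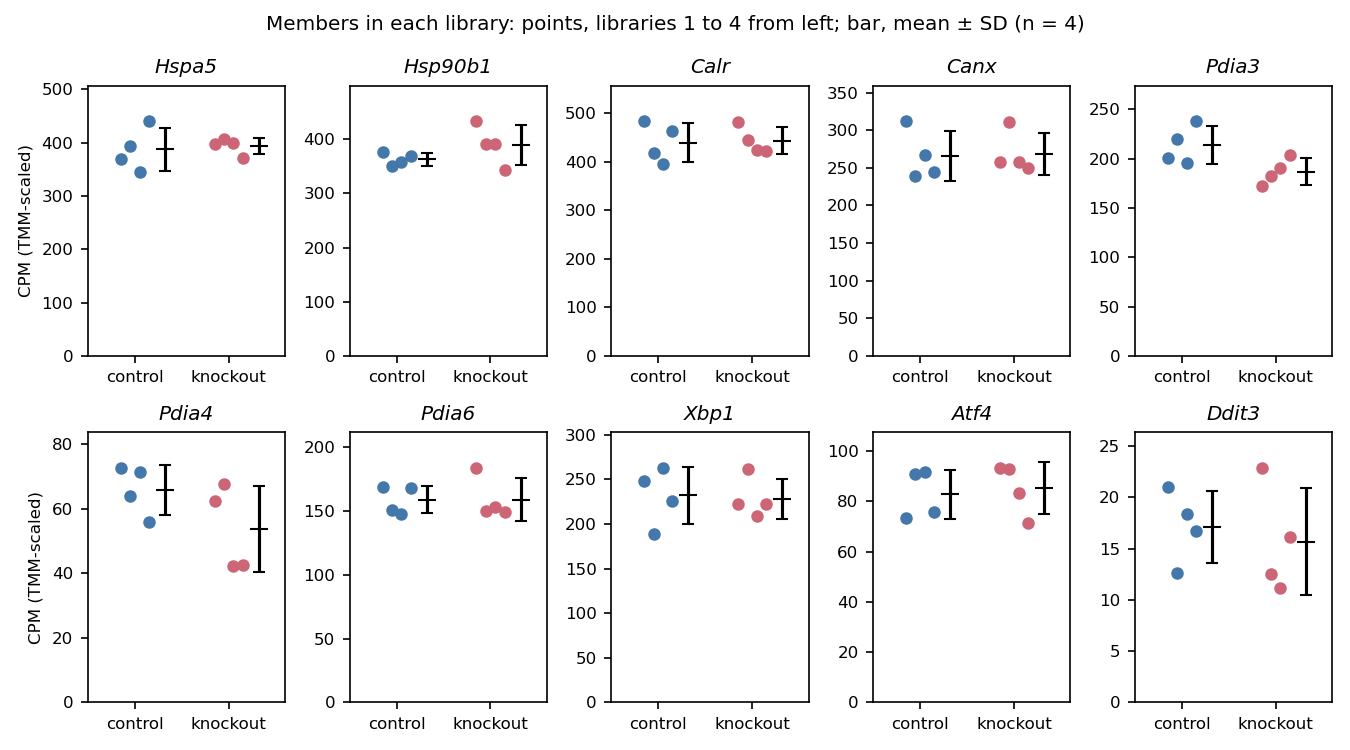
CPM of each member in each library (points; replicates 1 to 4 from left to right, control blue, knockout red) with the mean ± SD of 4 libraries beside them; every vertical axis starts at 0. The groups overlap in all 10 panels, and 3 knockout libraries lie below every control for Pdia3 and 2 for Pdia4 and Ddit3.

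Of the transcription factors, Xbp1 and Atf4 were as close and Ddit3 was measured less well. Xbp1 (chromosome 11, 5520659 to 5525893), the target of IRE1 and a factor needed by secretory cells, was at 248, 189, 263 and 226 CPM in control and at 222, 261, 209 and 222 CPM in knockout libraries. All knockout values fell between the lowest and the highest control. Its log2 fold change was -0.02 with an interval from -0.29 to 0.25 (edgeR adjusted p = 0.992). Atf4 (chromosome 15, 80255184 to 80257541), the factor of the integrated stress response and mainly controlled at translation, was at 73.4, 90.8, 91.5 and 75.6 CPM in control and at 93.4, 92.8, 83.4 and 71.2 CPM in knockout libraries. The highest and the lowest library were both knockouts. The log2 fold change was 0.04 with an interval from -0.24 to 0.32 (edgeR adjusted p = 0.984).

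Ddit3 (chromosome 10, 127290774 to 127296288) encodes CHOP, a factor that promotes cell death under lasting stress and is held low in unstressed tissue. It was at 21, 12.6, 18.4 and 16.7 CPM in control and at 22.9, 12.5, 11.2 and 16.1 CPM in knockout libraries. Here too the knockout libraries held both extremes. These values rest on 26.3 to 60 estimated counts, and the interval was the widest of the members: the log2 fold change was -0.14, from -0.71 to 0.43, or from 0.612-fold to 1.35-fold (edgeR adjusted p = 0.968). With all libraries in the fit, the interval takes in a change of 1.5-fold downward and ends short of that size upward. The fold change itself ran from -0.366 to -0.012 when 1 library was left out. Bounds are given for the fit with all libraries only, so an increase of that size is not excluded. A second, overlapping gene model named Ddit3 in the annotation had no counts in 7 libraries and 0.641 in the eighth.

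Set together, 6 members had a log2 fold change above 0 and 4 below, with a median of 0.005 against -0.001 over all tested genes. No member passed an adjusted p of 0.05 (smallest 0.845), and none had an unadjusted p under 0.05 in edgeR, DESeq2 or limma-voom. Of all tested genes, 3.52% were higher and 2.87% lower in the knockout libraries at that unadjusted p in edgeR. In no member did the 4 libraries of one genotype separate from those of the other, against 4.21% of all tested genes. The intervals of 8 members lay within 1.5-fold either way, the exceptions being Pdia4 and Ddit3, while 43.9% of all tested genes had intervals that narrow. That share covers tested genes of every abundance and was not matched to the counts of the members. Over those 8 members, picked by the width of their intervals, the intervals together spanned 0.746-fold to 1.26-fold. Over all 10 members they spanned 0.612-fold to 1.35-fold, both bounds from Ddit3. The sign of the fold change carries little information for 6 members (Hspa5, Calr, Canx, Pdia6, Xbp1 and Atf4), since it turned when 1 library or another was left out; it held for Hsp90b1, Pdia3, Pdia4 and Ddit3 in every setting run. Its size did not: Ddit3 went to -0.012 without knockout replicate 3, -0.019 without control replicate 1, -0.048 without knockout replicate 2, -0.267 without control replicate 2 and -0.366 without knockout replicate 1, and Hsp90b1 to 0.048 without knockout replicate 1 and 0.157 without knockout replicate 4.

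**Figure D3:**
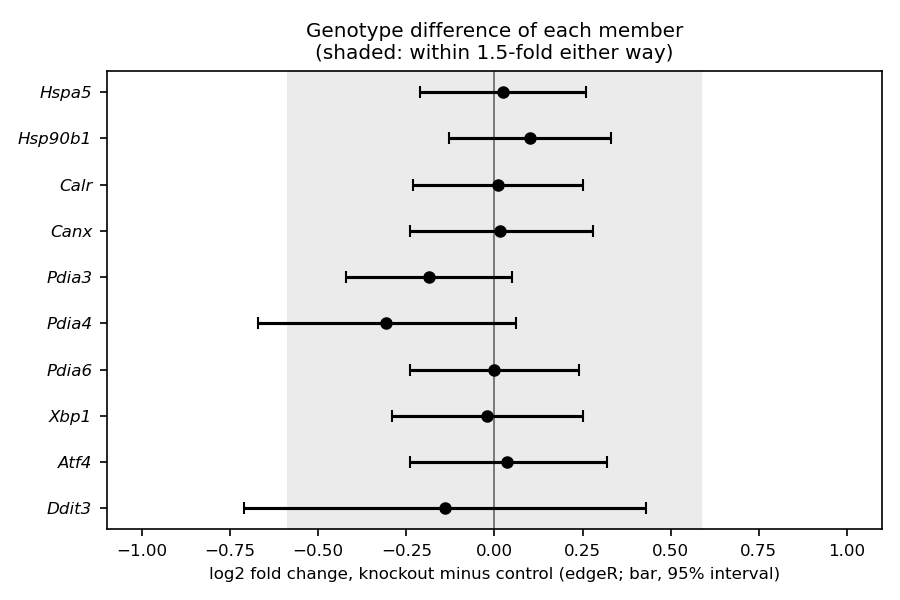
Log2 fold change (knockout minus control) of each member from edgeR with its 95% interval (4 libraries a group); the shaded band is a change within 1.5-fold either way. Every interval crosses 0, and those of Pdia4 and Ddit3 leave the band on the lower side.

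The members also varied little between libraries of one genotype. The within-genotype SD of log2 CPM had a median of 0.141 over the members and 0.284 over all tested genes; this spread shrinks with the number of counts, and it was largest for Ddit3 (0.372) and Pdia4 (0.278) and smallest for Hsp90b1 (0.103). The summed level of the members was 2328, 2129, 2152 and 2294 CPM in control and 2327, 2319, 2161 and 2091 CPM in knockout replicates 1 to 4. Both genotypes therefore spanned nearly the same range, with 2226 ± 99.9 and 2224 ± 117 CPM on average (SD, n = 4). Knockout replicate 1 had the highest value for 4 members and control replicate 1 for 3, and in knockout replicate 4 only 1 member, Pdia3, exceeded its median over the 8 libraries. The members shared few sequence words with other genes: Ddit3 shared 4.6% of its words of 31 bases, nearly all with its overlapping namesake, Calr 1.9% with the pseudogene Calr-ps, and the others under 1%.

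The rest of the ER folding machinery was read from the same test. Of 32 luminal chaperones and folding enzymes, all tested, 18 were higher and 14 lower, the median log2 fold change was 0.02 and none passed an adjusted p of 0.05. The single gene with an unadjusted p under 0.05 was Fkbp11, a prolyl isomerase of secretory cells, at 6.64, 6.28, 5.83 and 5.77 CPM in control and 8.24, 7.26, 11.2 and 13.4 CPM in knockout libraries. All knockout libraries exceeded all controls in this low-abundance gene, with a log2 fold change of 0.71 (interval 0.03 to 1.4; edgeR unadjusted p = 0.0431, adjusted p = 0.758). A single gene among 32 is near the 3.52% of all genes that were higher at that p.

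Stress sensors and genes of ER-associated degradation, which returns misfolded proteins to the cytosol for destruction, gave 12 higher and 15 lower of 27 tested (median -0.02), with none past the threshold; Derl3 was too low to test. The genes of the sensors themselves had log2 fold changes of -0.01 (Atf6), -0.23 (Ern1, encoding IRE1) and -0.03 (Eif2ak3, encoding PERK), with edgeR adjusted p-values of 0.997, 0.949 and 0.995. Sel1l, the adaptor of the main ubiquitin ligase of this route, was the 1 gene with an unadjusted p under 0.05, at 99.6 to 113 CPM in control and 107 to 145 CPM in knockout libraries (log2 fold change 0.26, interval 0.01 to 0.52; edgeR unadjusted p = 0.0429, adjusted p = 0.758). Of 29 tested genes of the ER translocon, oligosaccharyl transferase and signal peptidase, 12 were higher and 17 lower (median -0.02), again with none past the threshold. Krtcap2, a subunit of the oligosaccharyl transferase, was at 35.3 to 56.6 CPM in control and 53.6 to 75.6 CPM in knockout libraries (log2 fold change 0.38; edgeR unadjusted p = 0.0327, adjusted p = 0.721).

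The genes downstream of ATF4 and CHOP had no shared direction. Of 31 tested, 12 were higher and 19 lower (median -0.05), none passed an adjusted p of 0.05, and 3 had an unadjusted p under 0.05, namely 2 higher and 1 lower, where 6.39% of all tested genes had such a p (3.52% higher and 2.87% lower). Atf3, a stress-induced factor that is also an immediate early gene, was at 9.78, 2.51, 3.59 and 3.21 CPM in control and at 21.5, 15.3, 10.5 and 7.21 CPM in knockout libraries. Knockout replicates 1 to 3 exceeded every control, and knockout replicate 4 lay below control replicate 1 (log2 fold change 1.43, interval 0.45 to 2.42; edgeR unadjusted p = 0.00753, adjusted p = 0.498).

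Ppp1r15a, encoding the phosphatase subunit GADD34 that restores translation after stress, was at 14.3, 11.3, 15.2 and 8.98 CPM in control and at 22.9, 21, 15.1 and 16.4 CPM in knockout libraries (log2 fold change 0.57; edgeR unadjusted p = 0.0346, adjusted p = 0.726). Mthfd2, a mitochondrial folate enzyme and a classical ATF4 target, lay the other way, at 22, 22.6, 21.5 and 22.4 CPM in control and 14.7, 12.9, 17.8 and 16.1 CPM in knockout libraries. All knockout libraries were below all controls (log2 fold change -0.52; edgeR unadjusted p = 0.0167, adjusted p = 0.664). The more specific CHOP and ATF4 targets Trib3 and Chac1 had log2 fold changes of 0.09 and 0.03 at 1.67 to 10.8 CPM, with edgeR adjusted p-values of 0.99 and 0.998.

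Chaperones outside the ER gave the same picture. Of 22 cytosolic and mitochondrial heat shock genes tested, 8 were higher and 14 lower, with a median of -0.04; none passed an adjusted p of 0.05 and none had an unadjusted p under 0.05. The 2 genes with the smallest p in edgeR were Dnaja1, a co-chaperone of cytosolic Hsp70 (log2 fold change -0.25, adjusted p = 0.863), and Hspa9, the mitochondrial Hsp70 (log2 fold change -0.18, adjusted p = 0.877). An ERSE was also present in the promoter windows of 32 genes that are no members, 5 of which are in the lists above (Creld2, Derl3, Dnajc3, Ero1lb and Syvn1). Of these 32, 10 were tested; 5 were higher and 5 lower with a median of -0.03, and none had an unadjusted p under 0.05. This group was put together after the values of the members had been seen.

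**Figure D4:**
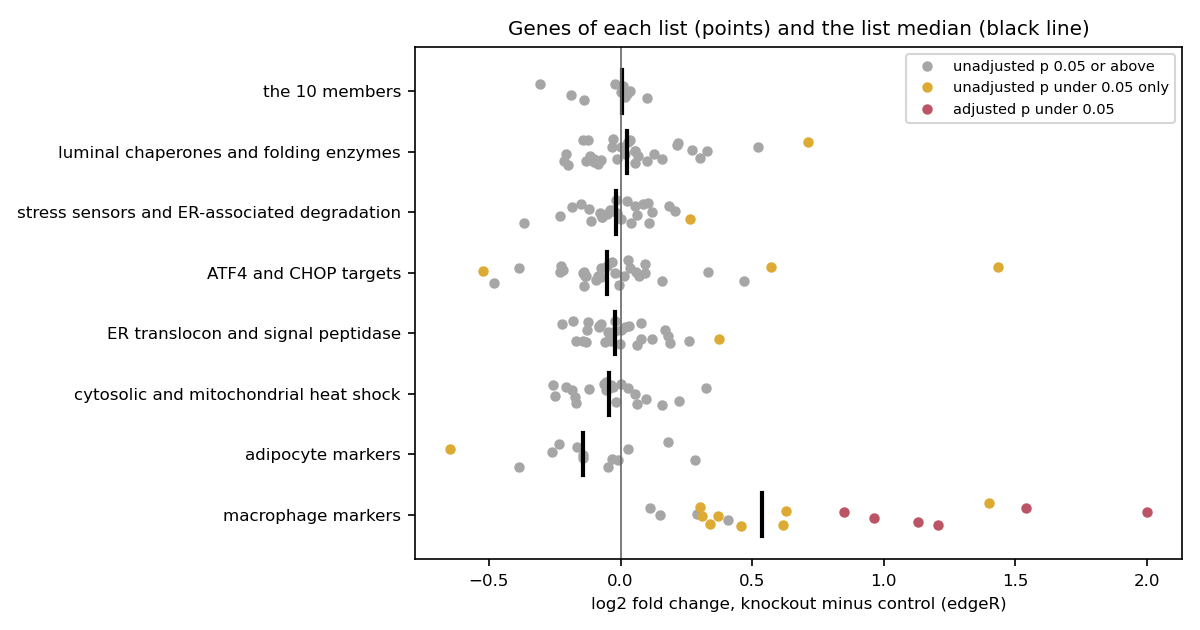
Log2 fold change (knockout minus control, edgeR) of each tested gene in the members, the 5 pathway lists and the adipocyte and macrophage marker lists; black lines are list medians, yellow points have an unadjusted p under 0.05 only and red points an adjusted p under 0.05. The 6 ER and heat shock groups centre between -0.05 and 0.02, and the macrophage markers at 0.54.

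Macrophage markers were higher in the knockout libraries. In bulk tissue, a different number of cells of a type and a different amount of RNA per cell cannot be told apart. All 18 had a log2 fold change above 0 (median 0.54, from 0.11 to 2), 6 of them past an adjusted p of 0.05, against 0.168% of all tested genes. This list was chosen with earlier results of these data known. The summed level of the 18 was 1178 to 1367 CPM in control and 1972 to 2330 CPM in knockout libraries. The adipocyte list had 3 of 13 genes higher (median -0.14), none past the threshold, and summed to 46586 to 61878 CPM in control and 39393 to 57795 CPM in knockout libraries. Retn was the 1 gene of that list with an unadjusted p under 0.05. Its log2 fold change was -0.65 (edgeR unadjusted p = 0.000146, adjusted p = 0.0731), and all knockout libraries lay below all controls. Plasma cells, which are very rich in ER chaperones, were looked for through a list of 11 B and plasma cell markers; only 3 of them could be tested and none passed, their sum was 447 to 1537 CPM in control and 482 to 1433 CPM in knockout libraries, and the plasma cell gene Jchain was at 8.33 to 71.4 CPM, highest in knockout replicate 2. The fibroblast, endothelial and mesothelial lists had no gene past the threshold, with medians of 0.1, 0.13 and -0.12. Tissues with a strong secretory load beside the depot were hardly present: of 14 epididymal markers 6 were at 0 in every library and the sum was at most 9.31 CPM, and of 10 pancreatic markers 3 were at 0 and the sum was 25.5 to 67.2 CPM. Genes of the mitochondrial genome took 10.7% to 12.4% in control and 8.7% to 10.1% of the counts in knockout libraries. The part of these markers and shares in the members' values was not tested.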

How the data were processed

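The authors deposited 1 table of estimated counts per gene for 8 libraries, without normalization. The submitters' processing notes name Salmon and GRCm38; tool versions, the annotation and any collapsing by molecular identifier are not given in the sources used here. Per the labels' protocols, total RNA was made into BRB-seq libraries (oligo-dT primed cDNA, Tn5 tagmentation, 10 PCR cycles) and read over 51 bases. The design was written for counts; since 59.6% of the values above 0 were whole, the estimated counts were rounded before testing.

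Genotypes were compared with edgeR 4.0.16 (R 4.3.3): TMM factors, filterByExpr (12480 of 34866 genes left), robust quasi-likelihood F test, genotype as the only term, Benjamini-Hochberg adjustment over all tested genes, threshold 0.05. Standard errors and 95% intervals were taken from the same F statistic and its degrees of freedom. CPM were computed on TMM-scaled sizes; a gene with no counts could hold up to 3, or 0.982 to 1.95 CPM, which covers counting error only. P-values measure the spread between these libraries, which may be technical in part. Of the identifiers, 34582 matched a symbol; coordinates are from GENCODE M21 (GRCm38). Of a pair of identifiers named Ddit3, the first was used. Promoter windows are from RefSeq (GRCm38.p6) and the Xbp1 sequence is from GENCODE M21.

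The genes named are the members and, in each pathway list, those with an unadjusted p under 0.05 (otherwise the 2 with the smallest p). The sensors, Trib3, Chac1, Serpinh1, Sesn2 and Retn were named outside this rule, after their values were seen. Gdf15 and Fgf21 were also named outside it, and Cyp19a1 and the other cell markers served as checks. The members and lists were chosen with earlier results of these data known. Alternatives tried were scaling by RLE or by upper quartiles, testing without a filter or with a minimum total of 80 counts per gene, DESeq2 1.42.0, voom in limma 3.58.1, downsampling to the smallest library, a replicate block, and leaving out each library. The main edgeR fit, DESeq2 and limma-voom were first run on simulated counts, and the other settings were not.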

Additional observations from a re-analysis of the deposited data

Results flagged for a closer look

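Dixon's test at the 95% level was applied to the highest and lowest library of each genotype for 33 genes. These were the members and the other genes given with values of their own, except Retn. It pointed to 1 library in 9 of 66 such sets of 4 values. Chance alone points to about 1 set in 20, or 3.3, where genes are picked without regard to their values. Some of the 33 genes, such as Serpinh1 and Trib3, were named after their values were seen. The 9 sets are therefore not comparable with that number. Canx was at 311 CPM in knockout replicate 2, against 250.2 to 258 CPM in the other knockout libraries; without that library its log2 fold change was -0.06 (edgeR adjusted p = 0.981). The same library had the highest Jchain (71.4 CPM) and Mzb1 (15.3 CPM, against 0.328 to 2.69 CPM elsewhere), both markers of plasma cells. Control replicate 1, with the highest Canx of all (312 CPM), had 23.8 CPM of Jchain. Control replicate 2, with the lowest Canx (239.8 CPM), had 54 CPM of Jchain. The part of these markers in the Canx value was not tested. Pdia6 was at 184 CPM in knockout replicate 1, against 149.5 to 153 CPM in the others of that genotype, and without it the log2 fold change was -0.07 (edgeR adjusted p = 0.992). Control replicate 1 had 9.78 CPM of Atf3 and the other controls had 2.51 to 3.59 CPM; without that library its log2 fold change went from 1.43 to 2.11 (edgeR unadjusted p = 0.000486, adjusted p = 0.167). The same control library had 293 CPM of Hspa9, with 258 to 260.3 CPM in the others of its genotype, and without it the log2 fold change was -0.14 (edgeR adjusted p = 0.915). Trib3 was at 10.1 CPM in knockout replicate 3 and at 4.12 to 4.84 CPM in the others, and its log2 fold change was -0.31 without that library (edgeR adjusted p = 0.953). Serpinh1 was at 597 CPM in knockout replicate 4 and at 314 to 357 CPM in the others, with a log2 fold change of 0.02 without it (edgeR adjusted p = 0.994). The adipocyte gene Plin1 was at 998 CPM in knockout replicate 1 and at 752 to 768 CPM in the others, with a log2 fold change of -0.16 without it (edgeR adjusted p = 0.97). Mzb1, given above for knockout replicate 2, was also among the 9. Cyp19a1 was at 2.24 CPM in control replicate 3 and at 0.418 to 0.699 CPM in the other controls, where the highest of these values rests on 5.02 estimated counts.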

How the results depend on the processing

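No member passed an adjusted p of 0.05 under any of the 16 other settings run (smallest 0.687, Pdia4 without control replicate 4), and the members' median log2 fold change stayed between -0.027 and 0.031. One member, Pdia4, had an unadjusted p under 0.05 without control replicate 4 or without knockout replicate 2, so this count, 0 with all libraries, was 0 to 1 when 1 library was left out. Signs turned for members close to 0: Pdia6 was at -0.0083 with upper-quartile factors, -0.00034 with the total-count filter and -0.019 with downsampling, Xbp1 at 0.0027 with limma-voom, and with downsampling Hspa5 was at -0.025 and Canx at -0.0034. With the replicate block Pdia6 was at -0.0014. Same-numbered libraries had correlations of 0.25, -0.062, -0.006 and -0.241 in their deviations from the group means. These do not settle whether such libraries were paired, and the labels link them by number only. Leaving out 1 library gave ranges of -0.024 to 0.089 for Hspa5, -0.035 to 0.06 for Calr, -0.059 to 0.105 for Canx, -0.075 to 0.031 for Pdia6, -0.107 to 0.05 for Xbp1 and -0.02 to 0.115 for Atf4. The other members kept their sign, at 0.048 to 0.157 for Hsp90b1, -0.231 to -0.134 for Pdia3, -0.439 to -0.208 for Pdia4 and -0.366 to -0.012 for Ddit3, which was at -0.013 with downsampling; Pdia3 was then at -0.121 and Hsp90b1 at 0.058.

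The count of genes past the threshold, 21, became 58 without the low-count filter, 55 with DESeq2, 6 with the replicate block, and 4 (without control replicate 2) to 43 (without control replicate 4) when 1 library was left out. In the luminal chaperone list the 1 gene with an unadjusted p under 0.05 became 0 without a filter, with DESeq2, with downsampling and with the replicate block, and 0 to 2 when 1 library was left out; its median was -0.03 with downsampling. In the sensor and degradation list the 1 such gene became 0 without a filter, with DESeq2, limma-voom, downsampling and the replicate block, and 0 to 1 when 1 library was left out, with medians from -0.036 to 0.026. In the translocon list there were 0 to 3 such genes when 1 library was left out (medians -0.042 to 0.001), and 0 to 1 in the heat shock list. The cause was not tested. The depth limits Ddit3 most, at 26.3 to 60 estimated counts.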

Other observations

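Serpinh1, the ER chaperone of collagen, stood apart from the other folding enzymes, and was singled out after its values were seen. It was at 597 CPM in knockout replicate 4 and at 314 to 357 CPM in the other 7 libraries, with a log2 fold change of 0.27 (edgeR adjusted p = 0.907). In the same library the summed level of the 10 ER members was the lowest of all, at 2091 CPM. Sesn2, a stress-induced regulator of growth signalling and an ATF4 target, was likewise high in a single library, at 121 CPM in knockout replicate 1 against 51.4 to 78.1 CPM elsewhere (log2 fold change 0.33, edgeR adjusted p = 0.922). That library also had the highest Atf3 (21.5 CPM), Ppp1r15a (22.9 CPM), Ddit3 (22.9 CPM) and Hsp90b1 (433 CPM) of the 8. These genes were picked after their values were seen, and other ATF4 and CHOP targets did not follow. In that library Trib3 (4.12 CPM) was the lowest of the knockouts and Mthfd2 (14.7 CPM) was below every control. Chac1 (7.33 CPM) was below control replicate 1 (9.08 CPM). Of the members, 4 had their highest value there and 1, Pdia3 (172 CPM), its lowest. Ern1 (5.49 CPM) was also at its lowest of the 8 in that library. The secreted stress hormones Gdf15 and Fgf21 were too low to test, at 0.656 to 5.82 CPM and at most 2.51 CPM.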
